A study of Ovis aries with 6 samples.

Results

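ATP1B1, ATP1B2 and ATP1B3 encode the beta subunits of the sodium-potassium ATPase, and they were found by gene symbol, as 3 of the 26067 features in the deposited count and TPM (transcripts per 1000000 transcripts) tables. The data are full-length complementary DNA sequenced on Oxford Nanopore devices from 6 sheep (Ovis aries), and each library carries the tissue label pituitary. By the study's design, the high-reproduction group was 3 small-tailed Han sheep and the low-reproduction group 3 Wadi sheep. The labels call the libraries C1 to C6 and assign none of them a breed, an age or a treatment. No breeds were therefore compared, every library stands for itself without a replicate, and no difference given here has a replicate check.

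The sodium-potassium ATPase exports sodium and imports potassium at the cost of ATP, and it sets the gradients on which membrane potential and many carriers depend. Each pump pairs a catalytic alpha subunit with a glycosylated beta subunit, which is needed for the folding of the alpha subunit, its exit from the endoplasmic reticulum and its delivery to the plasma membrane. The beta1 protein, from ATP1B1, is the most widespread partner. The beta2 protein, from ATP1B2, was first described in rodents as an adhesion molecule on glia, and the beta3 protein, from ATP1B3, is the surface antigen CD298, found on many cell types. Small FXYD proteins bind the assembled pump and tune its affinity for ions. Pituitary endocrine cells are electrically excitable and secrete hormone in response to calcium entry, which makes these gradients part of their physiology.

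Gene counts totalled 1981644 in the shallowest library, C6, and 2732911 in the deepest, C2. Levels across libraries are counts per 1000000 gene counts (CPM), where 1 count was worth 0.366 to 0.505 CPM. Intervals are 95% intervals that cover the counting error of reads alone. The libraries were amplified and carried no molecular identifiers, so copies of 1 molecule count as separate reads and the intervals may be too narrow. Against the common tissue label, pituitary hormone genes were abundant in C4, C5 and C6 and nearly absent from C1, C2 and C3. The 7 pituitary hormone genes PRL, GH, CGA, LHB, FSHB, TSHB and POMC summed to 142071 CPM in C4, to 299657 in C5 and to 47146 in C6. C1, C2 and C3 held 139, 47.2 and 50.3 CPM of the same genes, and 2 of the 7 were at 0 counts in each of these, TSHB and POMC in C1 and TSHB and FSHB in C2 and C3. In bulk tissue, fewer cells of a type and less RNA per cell cannot be told apart.

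ATP1B1 was well detected in every library and highest in C3. Its levels in C1 to C6 were 1360, 1535, 1979, 477, 820.4 and 762 CPM. C1, C2 and C3 each lay above C4, C5 and C6, and C4 was lowest. The C3 level was 4.15 times that of C4 (exact conditional 95% interval 3.89 to 4.44). A chi-square test of the gene's counts against the library totals gave a statistic of 3262 on 5 degrees of freedom. ATP1B1 thereby met the call rule used here, an adjusted p under 0.05 over all 13248 genes that had 60 counts or more, together with a highest library at 2 or more times the lowest. This rule was met by 80.9% of the genes tested, and all 3 beta subunit genes met it, so that being called does not set them apart. The test compares these libraries for counting error, not breeds or conditions.

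ATP1B2 followed an order close to that of ATP1B1 at lower counts. Its levels in C1 to C6 were 267, 308, 424, 98.0, 104 and 134 CPM. Again C3 was the highest and C4 the lowest library, and C1, C2 and C3 lay above the other libraries. The C3 level was 4.33 times the C4 level (exact interval 3.74 to 5.02, chi-square adjusted p = 1.69e-198).

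ATP1B3 had a different pattern, with a single high library. Its levels in C1 to C6 were 39.0, 41.0, 45.0, 36.3, 30.2 and 274 CPM. C6 was 9.07 times C5, the lowest library (exact interval 7.09 to 11.7, chi-square adjusted p = 2.49e-285), and 6.07 times C3, the next highest (4.97 to 7.47). Without C6 the ratio of highest to lowest fell to 1.49 and the gene was no longer called (chi-square adjusted p = 0.102). Only C6 therefore carried the call for ATP1B3, whereas ATP1B1 and ATP1B2 stayed called with any of the 6 libraries left out.

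**Figure D1:**
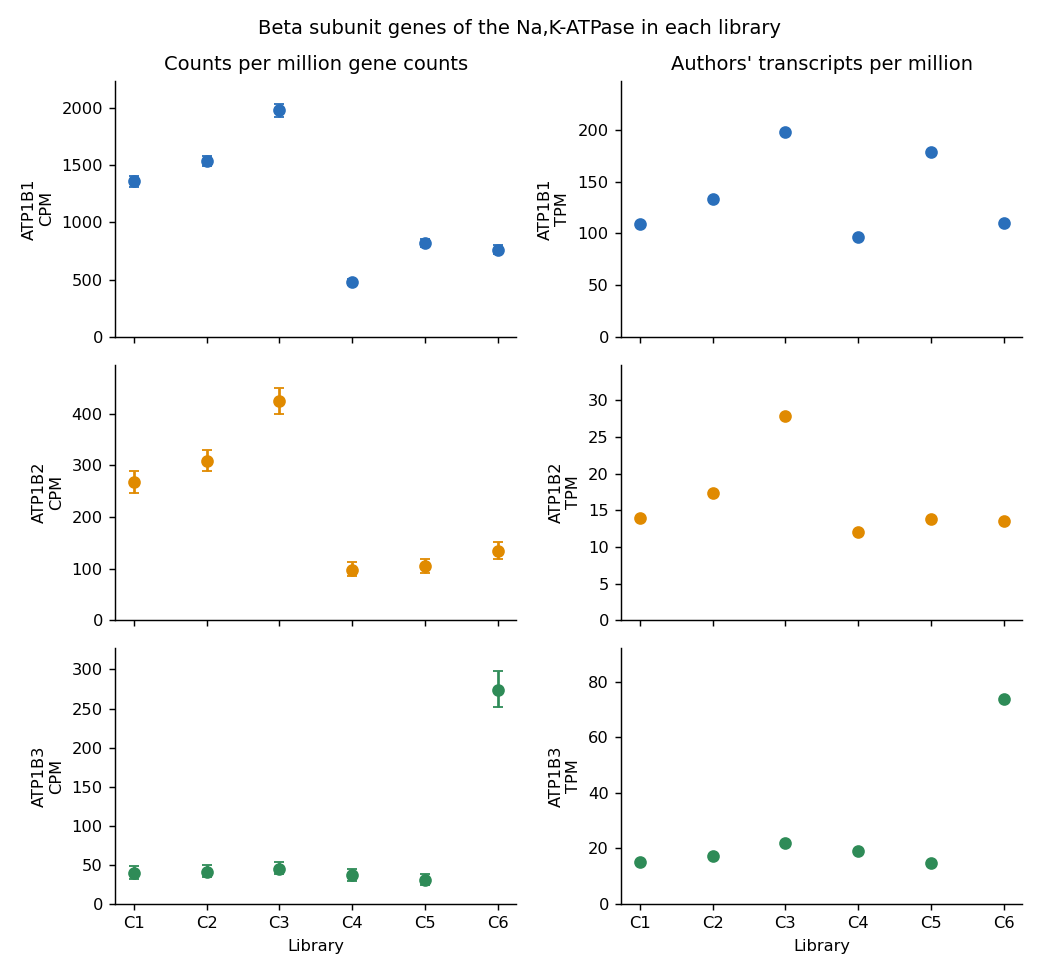
Level of ATP1B1, ATP1B2 and ATP1B3 in the libraries C1 to C6, in CPM with 95% Wilson intervals for counting error (left) and as the authors' TPM (right), 1 point per library, on linear axes from 0. ATP1B3 stands at 274 CPM in C6 and at 30.2 to 45.0 CPM in the other libraries, while ATP1B1 and ATP1B2 are highest in C3 on either scale.

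Set beside all genes tested, the ratios of ATP1B1 and ATP1B2 were ordinary for these libraries. The median gene differed 4.31-fold between its highest and lowest library, with quartiles of 2.43 and 10.5. A ratio at least as large as that of ATP1B1 was found in 51.1% of genes, as large as that of ATP1B2 in 49.9%, and as large as that of ATP1B3 in 28.6%.

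**Figure D2:**
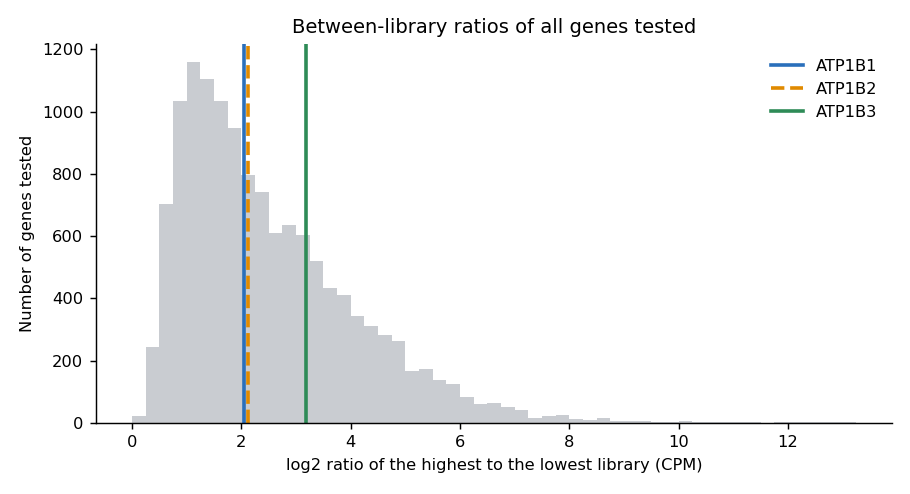
Histogram of the log2 ratio between the highest and the lowest library in CPM for the genes tested, with a count of 0 set to 3 counts, and vertical lines at the 3 beta subunit genes. ATP1B1 at 2.05 and ATP1B2 at 2.11 lie near the middle of the distribution and ATP1B3 at 3.18 lies to its right.

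The order of the levels was compared between neighbouring libraries with exact binomial tests, 15 pairs in all, with Benjamini-Hochberg adjustment over the 15. For ATP1B1 the order in CPM was C3, C2, C1, C5, C6 and C4, and every step in CPM exceeded counting error. The ratio of C1 to C5 depended on the scale. It was 1.66 in CPM, 1.43 with TMM and 1.29 with DESeq2 scaling, while in TPM C1 stood below C5, at a ratio of 0.613. The closest step in CPM was that from C5 to C6, with a ratio of 1.08 (exact interval 1.01 to 1.15, exact adjusted p = 0.0483). In 90.9% of the genes tested, these same libraries lay at least as far apart. This ratio depended on the scale and was 1.31 with TMM, 1.37 with DESeq2 scaling and 1.62 in TPM. For ATP1B2 the order in CPM was C3, C2, C1, C6, C5 and C4, where C5 and C4 did not differ beyond counting error (ratio 1.06, exact interval 0.884 to 1.28, exact adjusted p = 0.601). The step from C1 down to C6, a ratio of 1.99 (1.72 to 2.31), was the largest in this order. It was matched or exceeded by 57.2% of genes for that pair of libraries, and the ratio of C1 to C6 was 1.03 in TPM. The places of C4, C5 and C6 depended on the scale. C6 was 1.28 times C5 in CPM (1.08 to 1.53, exact adjusted p = 0.00871), but 1.06 times with TMM, 1.00 times with DESeq2 scaling and below C5 in TPM and relative to the median gene, a scale described with its values below. C5 was 1.31 times C4 with DESeq2 scaling.

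For ATP1B3, C3, C2, C1, C4 and C5 followed C6 in CPM, and none of the 4 steps among them exceeded counting error, with ratios from 1.05 to 1.20 and exact adjusted p from 0.358 to 0.778. The interval of the widest of these steps, from C4 to C5, ran from 0.869 to 1.67. The step from C6 to C3 was matched by 16.3% of the genes tested, for which the median ratio between C6 and C3 was 2.10 in either direction.

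The libraries differed in how far the bulk of genes was shifted in CPM. The median difference of all genes tested from C1, in log2(CPM + 1), was 0.02 in C2, 0.07 in C3, -0.21 in C4, -0.53 in C5 and -0.14 in C6. Each gene was therefore also expressed as a multiple of the median CPM of the genes tested in the same library. On that scale ATP1B3 stood at 2.07, 2.20, 2.33, 2.18 and 2.28 times the median in C1 to C5, and at 15.9 times the median in C6. ATP1B3 thus kept to a narrow range in 5 libraries on this scale, which was added with the data known, and left it in C6. The same 5 libraries ran from 30.2 to 45.0 in CPM and from 14.7 to 21.8 in TPM. ATP1B1 stood at 72.1, 82.3, 103, 28.7, 62.0 and 44.4 times the median, again lowest in C4 and highest in C3. ATP1B2 stood at 14.1, 16.5, 22.0, 5.89, 7.88 and 7.79 times the median, with the same highest and lowest libraries as in CPM. C5 was then above C6 for ATP1B2, and C1, not C5, was lowest for ATP1B3.

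In the authors' TPM the contrast between libraries was smaller. ATP1B1 was at 109, 133, 198, 96.3, 178 and 110.2 TPM in C1 to C6, so that C5 came second and C6 slightly above C1. The separation of C1, C2 and C3 from the other libraries, seen in CPM and with edgeR TMM or DESeq2 scaling, did not hold for ATP1B1 in TPM. ATP1B2 was at 13.9, 17.4, 27.9, 12.1, 13.7 and 13.5 TPM, with C1 just above C5 and C6. ATP1B3 was at 14.9, 17.1, 21.8, 19.2, 14.7 and 73.7 TPM, still with C6 alone high. C3 remained the highest and C4 the lowest library for ATP1B1 and ATP1B2, with ratios of 2.06 and 2.31 in TPM, and the ratio for ATP1B3 was 5.03.

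Composition among the beta subunits does not depend on the scaling of a library, and it was dominated by ATP1B1 throughout. ATP1B1 made up 81.6, 81.5, 80.8, 78.0, 85.9 and 65.2% of the summed beta subunit counts in C1 to C6. In C6 its 95% Wilson interval, 63.2 to 67.1%, lay below that of every other library. ATP1B2 made up 16.0, 16.4, 17.3, 16.0, 10.9 and 11.4% of these counts. The share in C5 (Wilson interval 9.70 to 12.2%) was low against ATP1B1, whereas that in C6 (10.2 to 12.8%) belongs to a sum in which ATP1B3 held 23.4%. ATP1B3 made up 2.34, 2.18, 1.84, 5.95, 3.16 and 23.4% of the counts, and its C6 interval was 21.7 to 25.1%. The 3 genes and 6 libraries together gave a chi-square of 2102 on 10 degrees of freedom, which fell to 138 on 8 degrees of freedom without C6 (chi-square p = 7.46e-26).

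Levels were also set against each other between genes per length, in the authors' TPM, whose lengths are not stated. On that scale ATP1B1 was the highest of the 3 genes in every library, at 79.2, 79.4, 79.9, 75.5, 86.3 and 55.8% of their summed TPM. ATP1B2 held 10.1, 10.4, 11.3, 9.48, 6.64 and 6.83%, and ATP1B3 held 10.8, 10.2, 8.80, 15.0, 7.09 and 37.3%. ATP1B2 and ATP1B3 were close to each other in TPM in C1, C2 and C5, with ratios of ATP1B3 to ATP1B2 of 1.07, 0.986 and 1.07. In counts the same ratios were 0.146, 0.133 and 0.290, so ATP1B2 was well above ATP1B3 in these libraries. In C3, C4 and C6 the ratio was 0.782, 1.59 and 5.47 in TPM, and 0.106, 0.371 and 2.05 in counts. Which unit is closer to the number of transcripts was not tested. No interval was set on the TPM ratios, since TPM are not counts.

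**Figure D3:**
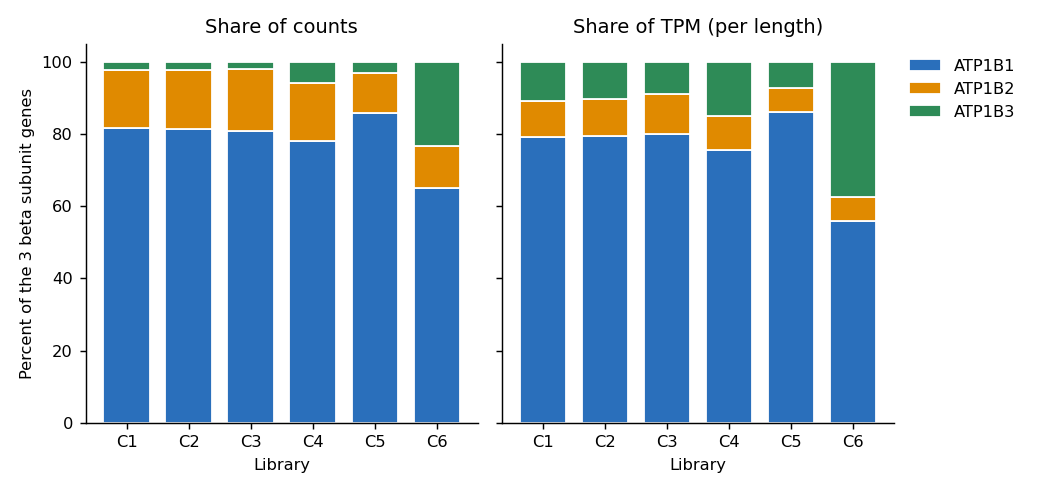
Share of each beta subunit gene in the sum of the 3 genes, in percent, per library, from counts (left) and from the authors' TPM (right). ATP1B1 is the largest share in every library, and ATP1B3 reaches 23.4% of counts and 37.3% of TPM in C6.

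The proportion of ATP1B2 to ATP1B1 varied less among 5 of the 6 libraries than with C5 included. For every 100 counts of ATP1B1 there were 21.4 counts of ATP1B2 in C3, 20.6 in C4, 20.1 in C2, 19.6 in C1 and 17.5 in C6, while C5 had 12.7. Of the 5 neighbouring steps in this order, the step from C6 to C5 exceeded counting error (Fisher's exact test, adjusted p = 0.00211 over 10 such steps), and the other 4 had adjusted p of 0.338 to 0.772 by the same exact test. Across all libraries the proportion differed (chi-square 53.8 on 5 degrees of freedom, p = 2.26e-10), over a range of 0.76 in log2. With C5 left out the range was 0.29 and the chi-square p was 0.0821, so the difference rested mainly on C5. The ends of the remaining order, C3 and C6, were not tested against each other, so a fixed proportion was not shown. In C5, ATP1B1 was 7.88 times ATP1B2 in counts, against 4.67 to 5.70 times elsewhere. In TPM the ratio was 13.0 in C5 and 7.10 to 8.17 in the other libraries.

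ATP1B3 varied more against ATP1B1. For every 100 counts of ATP1B1 there were 35.9 counts of ATP1B3 in C6, 7.62 in C4, 3.68 in C5, 2.87 in C1, 2.67 in C2 and 2.27 in C3. The steps from C6 to C4 and from C4 to C5 exceeded counting error (Fisher's exact test, adjusted p = 1.25e-44 and 5.66e-05), and the remaining steps had adjusted p of 0.306 to 0.772 by the same exact test. In CPM, ATP1B1 was lower in C4 than in C5, and the ATP1B3 levels of these libraries were within counting error of each other.

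Markers of other cell types moved with these genes. The 6 general neuron markers analysed were SNAP25, SYT1, STMN2, RBFOX3, MAP2 and NEFL, and all 6 had their highest level in C1, C2 or C3. Their summed level in C1 to C6 was 5443, 5185, 5019, 626, 732 and 407 CPM, and none was at 0. The 8 cerebellar granule neuron markers GABRA6, ZIC1, ZIC2, NEUROD1, ETV1, FAT2, CBLN1 and CBLN3 summed to 4417, 4451, 4114, 116, 88.9 and 146 CPM in the same order, and ZIC2 was at 0 in C5. ETV1 made up most of the sums in C4 and C5, at 90.2 and 78.1 CPM. In TPM the granule neuron sums in C1 to C6 lay closer together, at 1005, 1097, 1373, 417, 263 and 91.4. C1, C2 and C3 are also the libraries with the higher ATP1B1 and ATP1B2 in CPM. The 5 astrocyte markers analysed, AQP4, SLC1A2, SLC1A3, GJA1 and ALDH1L1, summed to 467, 560.2, 659, 51.7, 25.6 and 677 CPM, with none at 0. The highest sums of astrocyte markers were in C6 and C3. The part of these cell types in the levels of ATP1B1 and ATP1B2 was not tested.

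C6, the library with high ATP1B3, was also the library with the highest sums of myelin, choroid plexus and astrocyte markers. The 3 Schwann cell markers analysed, PMP22, PRX and EGR2, were all highest in C6 and summed to 2165 CPM there, against 12.9, 10.6, 11.0, 102 and 17.8 CPM in C1 to C5, with none at 0. The 2 oligodendrocyte markers analysed, MOG and MAG, were also highest in C6, at a sum of 303 CPM against 39.4, 25.2, 27.6, 1.75 and 0.413 CPM in C1 to C5, with MAG at 0 in C5. Of the astrocyte markers, 3 of 5 were highest in C6, and AQP4 stood at 188 CPM there. Of the 6 choroid plexus markers, 5 were highest in C6, with KL at 41.9 CPM and KCNJ13 at 40.4 CPM. The part of these cells in the ATP1B3 level was not tested.

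Choroid plexus tissue is rich in this pump, so its markers were set beside the same genes. The 6 markers KCNJ13, FOLR1, CLIC6, KL, AQP1 and TTR summed to 114, 120, 4537, 44.2, 9.51 and 7410 CPM in C1 to C6. TTR made up most of the sum in C3 and C6, at 4521 and 7312 CPM, while FOLR1 had 0.378 CPM in C3 and 6.06 CPM in C6 and was at 0 counts in C1 and C5. AQP1 was at 0 counts in C1, C2, C3 and C5, KL in C1 and CLIC6 in C2. C3 was the highest library for ATP1B1 and ATP1B2, and without C3 their ratios of highest to lowest library were 3.22 and 3.14. C4, the lowest library for ATP1B1 and ATP1B2, had the highest sum of smooth muscle and fibroblast markers, DES, ACTA2, MYH11, COL1A1 and COL1A2, at 3921 CPM against 62.4 to 487 CPM elsewhere. The 4 endothelial markers VWF, PECAM1, CDH5 and KDR summed to 125 CPM in C4 and 82.3 CPM in C6, and to 6.00 to 19.7 CPM in the other libraries, with PECAM1 and CDH5 at 0 in C1. The 4 Purkinje cell markers analysed, PCP2, CALB1, CA8 and ITPR1, summed to 665, 594, 638, 73.1, 54.6 and 28.3 CPM, with PCP2 at 0 in C4 and C5. ITPR1 went against this list, with its highest level in C4. It stood at 42.9, 40.6, 60.9, 62.2, 37.2 and 23.7 CPM in C1 to C6 and made up most of the CPM sums in C4, C5 and C6. In TPM the Purkinje cell sums were 113, 110, 114, 152, 55.5 and 61.2 in C1 to C6, with C4 highest. The part of these cell types in the beta subunit levels was not tested.

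**Figure D4:**
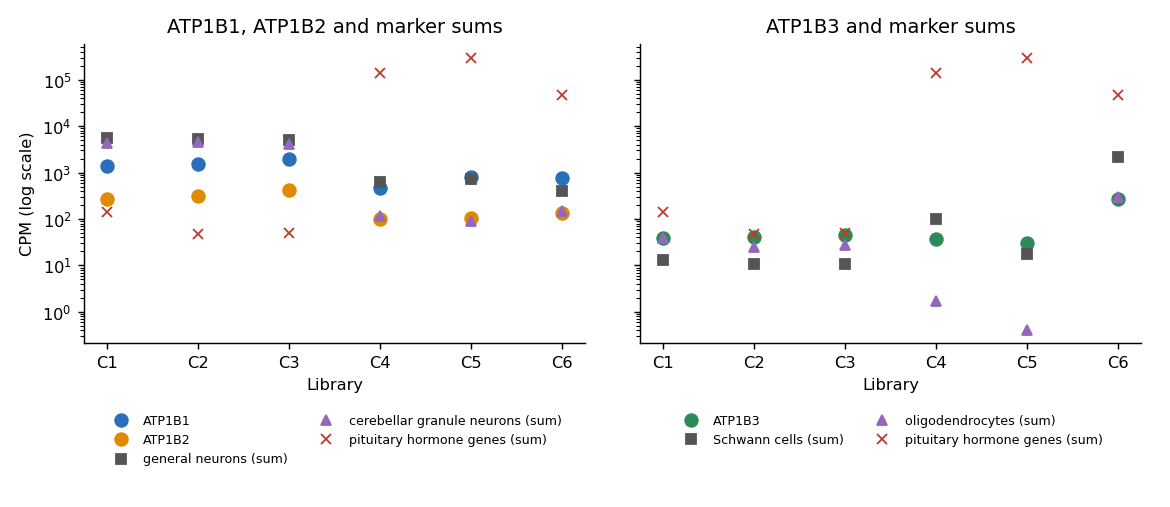
Levels of the beta subunit genes beside the summed levels of marker lists in each library, in CPM on a log scale, with 1 point per library and gene or list. Neuron and granule neuron sums are highest in C1, C2 and C3, and the Schwann cell and oligodendrocyte sums shown are highest in C6, as are ATP1B3 and the choroid plexus and astrocyte sums, which are not drawn.

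The FXYD genes encode the small regulators of the pump. Of 7 FXYD genes, FXYD1, FXYD3, FXYD6 and FXYD7 reached 60 counts and were called, as were 80.9% of all genes tested. FXYD3 reached that minimum only through C6, with 16 counts in the other libraries together, and nothing is read from its call. FXYD6, the phosphohippolin gene, was at 160, 150, 211, 151, 61.2 and 455 CPM in C1 to C6. Its C6 level was 7.43 times that of C5 (exact interval 6.24 to 8.91), and C6 was also the highest library of ATP1B3. FXYD7, a brain regulator in rodents, was at 40.3, 43.9, 43.9, 2.63, 0 and 69.6 CPM. It was 56.2-fold higher in C6 than in C5 when the C5 count was set to 3 counts. C4 and C5 were the libraries where it was nearly undetected. FXYD1, which encodes phospholemman of heart and muscle, was at 7.72, 12.1, 12.1, 120, 3.31 and 106 CPM. Its ratio of C4 to C5 was 36.3 (18.2 to 84.9), and C4 and C6 were the libraries with high levels. The smooth muscle and fibroblast markers summed to 3921 CPM in C4 and 487 CPM in C6. In C6 most of this sum was COL1A1 and COL1A2, at 109 and 294 CPM. DES, ACTA2 and MYH11 were at 8.07, 74.7 and 1.51 CPM in C6, below their 28.0, 97.6 and 3.03 CPM in C3. The part of these markers in FXYD1 was not tested. FXYD3 was at 23.2 CPM in C6 and at most 3.50 CPM elsewhere. FXYD5, the dysadherin gene, had 23 counts in C4, 19 in C6 and at most 4 elsewhere, FXYD2 had at most 5 counts in any library, and FXYD4 had 0 in all 6. These 3 genes were below the minimum for the test.

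The NKAIN proteins are membrane proteins that bind the beta1 subunit, as shown in mouse. NKAIN2 was at 475, 289, 197, 53.0, 14.1 and 273 CPM in C1 to C6, 33.8 times higher in C1 than in C5 (exact interval 24.0 to 49.0). Its order thus placed C6 with C1, C2 and C3, unlike that of ATP1B1. NKAIN3 had 19 to 22 counts in each of C1, C2 and C3, 6 in C6 and none in C4 and C5, and NKAIN1 had 1 count in all. ATP1B4, a beta-like protein gene, and the gastric proton pump genes ATP4A and ATP4B were at 0 counts in all 6 libraries, which allows up to 3 counts in each. ATP12A, the non-gastric proton pump gene, had 1 count in C6.

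Carriers that draw on the sodium gradient were called in 7 of 7 tested members, beside 80.9% of all genes tested, with 3 highest in C1 and 1 each in C2, C3, C4 and C6. The median ratio of highest to lowest library in this list was 8.56, against 4.31 over all genes tested. Some of these ratios rest on few counts in the lowest library, with 2 for SLC8A3, 5 for SLC8A2 and 0 for SLC24A3. Whether the list varied more than other genes was not tested. SLC12A2, the sodium-potassium-chloride cotransporter NKCC1, was at 74.6, 56.7, 55.6, 10.9, 12.4 and 79.7 CPM. C6 was highest and C4 lowest in CPM, while C1 was highest and C5 lowest in TPM. SLC8A1, a sodium-calcium exchanger gene, was highest in C4 at 46.8 CPM and lowest in C6 at 6.56 CPM, a ratio of 7.14 (exact interval 4.00 to 13.8). Its relatives SLC8A2 and SLC8A3 were highest in C3 and C1, at 24.6 and 28.7 CPM, although SLC8A2 was highest in C4 in TPM. SLC4A4, a sodium-bicarbonate cotransporter gene, was highest in C1 at 42.5 CPM and lowest in C5 at 4.96 CPM, although C4 was lowest in TPM. SLC24A2 ranged from 32.4 CPM in C4 to 104 CPM in C1, and SLC24A3 from 0 counts in C5 to 19.4 CPM in C2.

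The potassium-chloride cotransporters run on the potassium gradient that the pump builds. SLC12A5, the neuronal cotransporter KCC2, had 33 counts in C1, 36 in C2, 40 in C3, 2 in C4 and none in C5 and C6. The levels of C1, C2 and C3, at 14.2, 13.2 and 15.1 CPM, lay within counting error of each other. It was the tested member of its list and was called, while SLC12A4 and SLC12A7 had at most 5 counts in a library.

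Calcium pumps, relatives of the sodium-potassium ATPase, were called in 3 of 4 tested members, beside 80.9% of all genes tested, all highest in C1 in CPM (ATP2A2 in C3 in TPM). ATP2A2, the calcium pump of the endoplasmic reticulum, was at 491, 368, 442, 182, 78.1 and 60.1 CPM, 8.18 times higher in C1 than in C6 (exact interval 6.77 to 9.97). The plasma membrane pump ATP2B1 was at 426, 281, 307, 92.4, 151 and 69.1 CPM, and ATP2B2, known from cerebellar neurons, at 238, 220, 235, 28.0, 22.3 and 31.8 CPM. C1, C2 and C3 lay above the other libraries in all 3 in CPM, while in TPM C5 lay above C2 and C3 for ATP2B1. ATP2C1, the pump of the Golgi apparatus, was not called, at 36.8 to 43.0 CPM and a ratio of 1.17 (exact interval 0.857 to 1.60, chi-square adjusted p = 0.794), while its TPM ran from 16.7 in C1 to 36.1 in C5.

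Kinases and ubiquitin ligases that act on ion transporters were called in 3 of 5 tested members, beside 80.9% of all genes tested, 2 highest in C1 and 1 in C6. SGK1, a kinase that raises sodium transport, was at 93.9, 93.3, 64.7, 7.00, 3.72 and 76.2 CPM, while the ligase gene NEDD4L ranged from 78.8 CPM in C4 to 273 CPM in C1 and was highest in C3 and lowest in C6 in TPM. WNK1 was highest in C6 at 102 CPM and lowest in C5 at 22.7 CPM, but C5 came second in TPM, at 158 against 261 in C6, and C3 was lowest at 73.1. STK39 was at 140 to 184 CPM with a ratio of 1.31 and OXSR1 at 13.1 to 20.1 CPM with a ratio of 1.53, each below the ratio of 2. In TPM, however, STK39 stood at 227, 160, 191, 688, 1475 and 317 in C1 to C6, and OXSR1 at 31.9 in C6 and 50.2 to 64.8 elsewhere. Over all 7 lists, which hold no catalytic subunit, 20 of 23 tested genes were called, near the 80.9% of all genes tested, and FXYD3 and NKAIN3 among them reached 60 counts only with their highest library. The median ratio of the 23 tested genes was 8.18. Of the 20 called, 10 were highest in C1, 1 in C2, 2 in C3, 2 in C4, none in C5 and 5 in C6. The tally includes NKAIN3 under C1 and FXYD3 under C6, and nothing is read from those entries. Of all 13248 genes tested, those called with their highest level in C1, C2, C3, C4, C5 and C6 made up 17.1, 12.3, 13.6, 11.4, 9.42 and 17.0%. Of the 10723 genes called, which is the denominator that goes with the 20 genes above, the same shares were 21.2, 15.2, 16.8, 14.1, 11.6 and 21.0%.

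**Figure D5:**
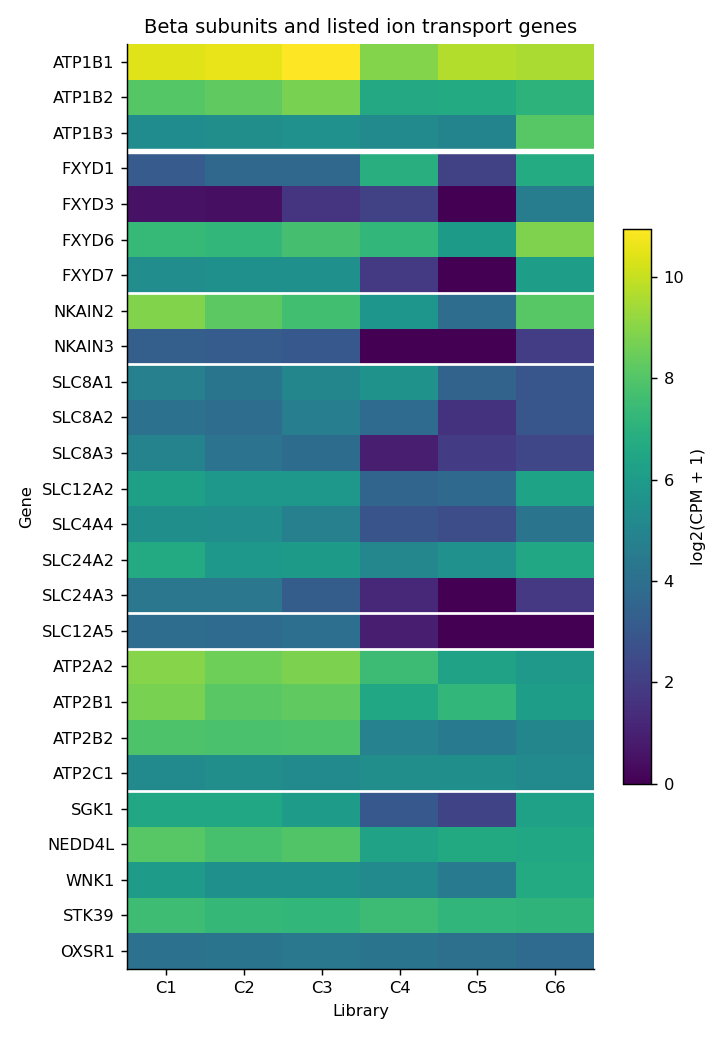
Levels of the beta subunit genes (top rows) and of the 23 tested genes of the ion transport lists in each library, as log2(CPM + 1), with white lines between lists. Colours are to be read along a row, since CPM and TPM can order the genes of a library differently. ATP1B3 and FXYD6 are brightest in C6, and ATP2C1 and OXSR1 change little in CPM.

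The genes whose pattern over the 6 libraries was most like that of each beta subunit gene were found among 7080 genes with a symbol and a mean of at least 10 CPM. Likeness was the root mean square difference between the log2(CPM + 1) values after each gene was centred on its own mean. ATP1B1 and ATP1B2 differed by 0.25 on this measure, ATP1B1 and ATP1B3 by 1.37, and ATP1B2 and ATP1B3 by 1.42. The nearest genes to ATP1B1 were SARM1, RASL10B, SEC61A2, ATP6V1C2 and DOLK, at 0.13 to 0.17. Those nearest to ATP1B2 were PROX1, CREG2, GNAZ, MTMR9 and PPM1E, at 0.15 to 0.18. Those nearest to ATP1B3 were S100A16, CLTRN, FSCN1, SIRT2 and BACE1, at 0.17 to 0.27. SIRT2, a deacetylase abundant in myelinating cells, was at 51.9, 53.4, 74.2, 39.8, 27.3 and 315 CPM, and S100A16, a calcium-binding protein gene, at 18.0, 19.8, 19.7, 20.6, 14.9 and 108 CPM. These lists depended on the measure: by Pearson's r none of the 5 remained for ATP1B1 or ATP1B2 and 2 remained for ATP1B3. In TPM 2, 1 and 0 remained for ATP1B1, ATP1B2 and ATP1B3, and with a pseudocount of 0.1 CPM in place of 1 CPM the numbers were 4, 2 and 5.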

How the data were processed

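RNA labelled as pituitary was made into amplified full-length libraries with the kits SQK-PCS109 and SQK-PBK004, per the labels' protocols, and the submitters' processing notes name the aligner minimap2 2.17-r941. How genes were quantified, and on which build and annotation, is not given in the sources used here. The authors deposited estimated counts per gene, of which 24.0 to 29.8% per library were not whole and which were rounded here, and TPM, whose lengths are not stated. Of each table, 4 rows of annotation text were left out.

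A chi-square test against library totals was run on each gene whose summed count reached 60, with Benjamini-Hochberg adjustment (scipy 1.17.1). In a ratio, a count of 0 was set to 3 counts per library. Alternatives used edgeR 4.0.16 TMM and DESeq2 1.42.0 size factors for scaling, with no edgeR or DESeq2 test, because no library has a group. Flags for outlying samples were not set for the same reason.

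The genes named are the 3 beta subunit genes, members of the transport and marker lists, and the 5 genes most like each beta subunit gene. Members and lists were chosen with earlier results of these data known. The catalytic alpha subunits and some members of the transport and marker lists are not reported here, and are in no sum or count of a list.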

Additional observations from a re-analysis of the deposited data

How the results depend on the processing

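With 1 library left out in turn, the ratio of highest to lowest library ran from 2.60 to 4.15 for ATP1B1 (2.60 without C4), from 3.14 to 4.33 for ATP1B2 and from 1.49 to 9.07 for ATP1B3, which was called except without C6. The range of log2(ATP1B2/ATP1B1) ran from 0.29 (without C5) to 0.76, and was 0.87 in TPM. Of ATP1B1 and ATP1B2 alone, the proportion no longer passed the test without C5 (chi-square p = 0.0821). The call count over all genes ran from 9272 to 9760, or 73.9 to 78.9% of the genes tested. Over the transport lists it ran from 18 of 21 tested genes without C3 to 20 of 23 without C5. Under TMM and DESeq2 scaling the member ratios were 3.99 and 3.71 for ATP1B1, 4.15 and 3.87 for ATP1B2, and 7.45 and 7.27 for ATP1B3. Relative to the median gene, which was added with the data known, the ratios were 3.58, 3.73 and 7.71, C5 passed C6 for ATP1B2, and the lowest library of ATP1B3 was C1. With DESeq2 scaling it was C4. Leaving ATP1B3 out of the composition, added likewise, could not change this range of log2(ATP1B2/ATP1B1), which does not use ATP1B3. Without rounding and with thinned counts, each member kept its highest and lowest library. Other count minimums and ratio thresholds bear on the counts of calls, which stayed within 1.5 times. The share of tested genes called was 61.3% with no minimum beyond 1 count and 80.2% with a minimum of 120 counts. It was 88.8% at a ratio threshold of 1.5 and 64.3% at a threshold of 3. No paired analysis was possible because the labels put no library in a group. TPM carry no depth, and single libraries give no spread between animals.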

Other observations

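How the TPM were computed is not given. If they came from the deposited counts, the ratio of TPM to CPM of a gene would reflect the transcript length used, up to 1 factor per library. Relative to the median gene of the same library, this log2 ratio for ATP1B1 lay between -1.63 and -1.31 and for ATP1B2 between -2.25 and -2.00. For ATP1B3 it was 0.62, 0.65 and 0.67 in C1, C2 and C3, 0.03 in C4, -0.15 in C5 and -0.58 in C6. The ATP1B3 difference of C6 from C3 was accordingly 6.07-fold in CPM, while its TPM were 73.7 and 21.8.

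The summed level of the 3 beta subunit genes was 1666, 1884, 2449, 611, 955 and 1170 CPM in C1 to C6, and 138, 167, 248, 128, 207 and 197 TPM. C3 was highest and C4 lowest in either unit, and C5 and C6 exceeded C1 and C2 in TPM but not in CPM.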
